A study of Mus musculus with 24 samples.

Results

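Interferon response genes are the genes that liver cells and their immune neighbours switch on when they sense interferon. A set of 44 such genes was followed in mouse liver, and each was read from the probe sets whose platform annotation lists that symbol and no other. Of the 44 genes, 42 were measured, among 18194 genes in all, through 69 probe sets. Isg15, the ubiquitin-like modifier, was only on a probe set that also lists Gm9706, and Ifi44 had no probe set of its own, so neither is reported. Of the 42 genes, 23 had 1 probe set and 19 had several, and the probe set with the highest mean level stands for a gene below.

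The study set out to find what a high-fat diet does to hepatic gene expression and what propagules, the small aerial tubers of Japanese yam, do on top of it. Livers came from 18 male C57BL6J mice, 1 Affymetrix array per mouse. The HF+P mice (n = 6) ate a diet with 45% fat and 5% powdered propagules, the HF mice (n = 6) ate the same 45% fat diet without propagules, and the LF mice (n = 6) ate a low-fat diet. All animals had first been accustomed to the low-fat diet, were fed the test diets for 4 weeks and were fasted for 16 h before dissection. The material was whole liver pieces, so that fewer cells of a type and less RNA per cell cannot be told apart, and HF stands for a short high-fat feeding after which all livers were in the fasted state. The mice of each group carry numbers, 1, 2, 3, 4, 5 and 8 in HF and LF and 1, 2, 3, 4, 7 and 8 in HF+P, and per-mouse values are given in that order. Nothing in the labels says that mice with the same number belong together.

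Values for the 6 HF livers exist in a first set, made together with LF, and in a second set, a re-analysis of the same arrays made together with HF+P. The sets were kept apart, and both comparisons share the HF mice. All 11 hepatocyte markers, among them Alb, Apoa1 and Ttr, lay above the median level of named probe sets, and all 10 markers of other tissues lay below it in the values shared by LF and HF. In the values shared by HF+P and HF, 8 of those 10 lay below it, and their summed level was 955.25 in HF+P mouse 8, against 941.59 to 942.67 in the other HF+P mice and 941.73 to 942.56 in HF mice. The deposited values hardly differ between arrays for most probe sets, with a median SD over 12 arrays of 4.17e-06 in the first set and 4.27e-06 in the second. A difference between them is no fold change. Sizes are standardized: the mean of the first group minus that of the second, in units of the SD pooled within groups, with Hedges' small-sample correction and a 95% interval. A mouse's deviation is its value minus the mean of the group named second, also in pooled SDs.

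Type I interferons signal through Jak kinases to a complex that holds Stat2 and Irf9 and binds the interferon-stimulated response element (ISRE) in the promoters of antiviral genes. Interferon gamma, made mainly by T cells and natural killer (NK) cells, acts on genes through the gamma-activated site (GAS), and it is a strong inducer of guanylate-binding proteins, immunity-related GTPases, immunoproteasome subunits and peptide transporters. In liver, hepatocytes, Kupffer cells and endothelial cells all respond to interferons.

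Promoter sequences of the GTPase and IFIT genes are shown because these families include the members with the widest spread between mice. RefSeq windows of 300 bases, 250 before and 50 after an annotated start in GRCm38.p6, were matched by symbol for 30 of the 42 genes and gave 35 windows. The ISRE was searched as GAAANNGAAA and the GAS as TTCNNNGAA, on both strands, with overlapping matches counted. An ISRE match was in 16 of the 35 windows (45.7%), against 3.44% of all 32851 windows. A GAS match was in 9 (25.7%), against 8.3% of all windows, and both were in 5 (14.3%), against 0.454%. Among the GTPases, 6 genes had windows, and an ISRE match was found for each of these 6 and a GAS match for 3 of them. A match is a run of letters, and binding was not measured. The stretches below are 90 bases each, written 5′ to 3′ on the strand of the gene, with the motif matches in capitals.
Gbp2: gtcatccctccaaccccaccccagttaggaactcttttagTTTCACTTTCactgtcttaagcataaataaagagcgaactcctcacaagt
Gbp3: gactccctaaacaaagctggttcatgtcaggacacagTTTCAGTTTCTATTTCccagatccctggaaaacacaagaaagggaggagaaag
Gbp7: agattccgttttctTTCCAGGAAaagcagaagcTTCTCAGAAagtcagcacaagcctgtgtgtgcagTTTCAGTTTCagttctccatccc
These guanylate-binding protein genes lie in a cluster on the plus strand of chromosome 3. The stretches are chr3:142620564-142620653 for Gbp2, chr3:142559962-142560051 for Gbp3 and chr3:142530216-142530305 for Gbp7. All have an ISRE match on the reverse strand, 2 overlapping ones in Gbp3, and Gbp7 has 2 GAS matches upstream of it.
Igtp: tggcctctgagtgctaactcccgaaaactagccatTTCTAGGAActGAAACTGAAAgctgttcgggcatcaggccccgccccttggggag
Irgm2: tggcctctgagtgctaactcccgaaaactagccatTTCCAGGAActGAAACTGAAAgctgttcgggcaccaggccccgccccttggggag
Irgm1: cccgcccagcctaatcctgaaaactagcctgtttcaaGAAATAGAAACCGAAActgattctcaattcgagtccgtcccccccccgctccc
Igtp (chr11:58199476-58199565, plus strand) and Irgm2 (chr11:58214867-58214956, plus strand) are immunity-related GTPase genes that lie close together. Their stretches are identical at 88 of 90 positions, and in both the ISRE match begins 11 bases after the first base of the GAS match. Irgm1 (chr11:48871398-48871487, minus strand) has 2 overlapping ISRE matches in its stretch and no GAS match.
Ifit1: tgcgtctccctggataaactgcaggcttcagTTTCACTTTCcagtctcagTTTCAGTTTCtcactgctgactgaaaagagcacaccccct
Ifit3: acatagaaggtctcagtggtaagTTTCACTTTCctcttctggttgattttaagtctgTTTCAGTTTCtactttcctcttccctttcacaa
Ifit1 (chr19:34640754-34640843, plus strand) and Ifit3 (chr19:34583350-34583439, plus strand) encode RNA-binding antiviral proteins, and each has 2 separate ISRE matches and no GAS match in its stretch. Ifit2, another IFIT gene, had a GAS match and no ISRE match in its window and is not shown, and over the family 2 of 4 windows held an ISRE match. The windows of Tap1 and Psmb9, the peptide transporter and the immunoproteasome subunit, overlap by 275 bases on opposite strands, so these genes share a promoter region. The antigen processing genes had an ISRE match in 0 of 3 windows and a GAS match in 1 of them, at Psmb8.

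HF livers had higher mean levels than LF livers for 41 of the 42 interferon response genes, with a median standardized difference of 1.06, against 0.01 over all genes. Bst2, the tethering protein that holds budding virus at the membrane, was the exception at -0.27. None of the 42 passed an adjusted p of 0.05 (limma, Benjamini-Hochberg over 18194 genes), where 0.682% of all genes passed upward and 1.14% downward. At an unadjusted p under 0.05, 17 of the 42 were higher and 0 lower, against 6.51% of all genes higher and 8.68% lower. The values of all 6 HF mice lay above those of all 6 LF mice for Gbp2, Gbp3 and Gbp7, that is 3 of 42 members, against 0.918% of all genes, and 0 members lay wholly below LF, against 1.3% of all genes. The direction of some members depended on scaling: after centring each array on its median 35 of 42 were higher, and after quantile normalisation 29 of 42, with all 8 GTPases, the 3 IFIT genes, both measured genes of the ISG15 system and the 3 antigen processing genes higher under each. With median centring 13 members passed the threshold upward and 1 downward, against 1.27% and 87.2% of all genes. After centring 16089 of 18194 genes passed in all, so the adjusted threshold let larger unadjusted p-values through. The median of the GTPases was 1.38 both as deposited and after centring. With quantile normalisation 0 members passed upward and 1 downward, against 0.72% and 17.7% of all genes.

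**Figure D1:**
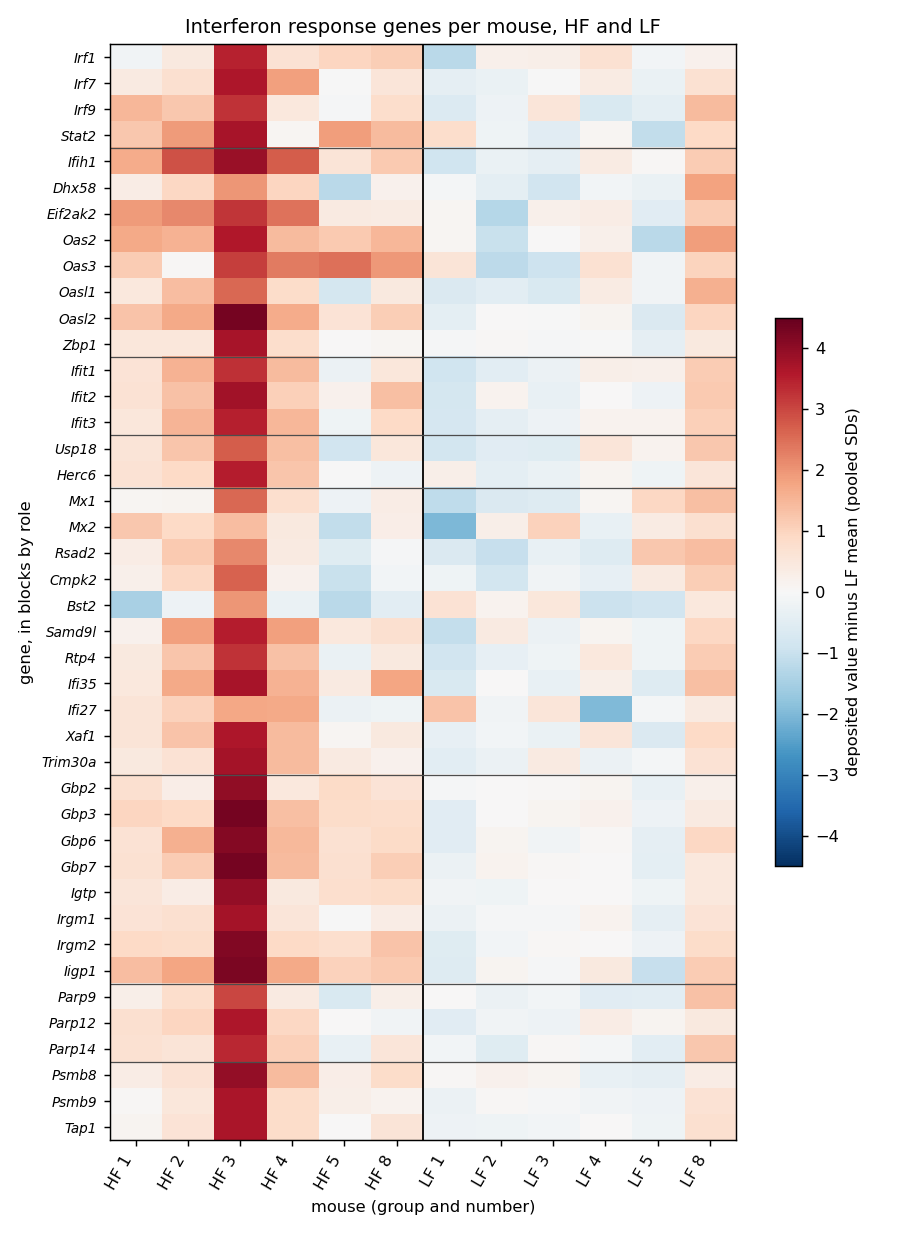
Deviation of each mouse (columns, 6 HF mice left of the line and 6 LF mice right of it) from the LF mean, in pooled SDs (colour), for the 42 interferon response genes (rows, in blocks by role). HF mouse 3 is the highest of the 12 mice for all 42 genes, and LF mouse 8 is above the LF mean for all 42. Colours are from the values as deposited, and 6 genes of this map turn to lower in HF after median centring and 12 after quantile normalisation.

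The transcription factor genes had a median standardized difference of 1.10 over 4 members. Stat2, the partner that carries the activation domain of the ISRE-binding complex, was the furthest apart. Its deviations were 1.21, 1.90, 3.70, 0.08, 1.87 and 1.41 pooled SDs in HF mice, against 0.79, -0.20, -0.50, 0.10, -1.10 and 0.91 in LF mice. HF mouse 4 lay within the range of the LF mice, and the other HF mice lay above it. The standardized difference was 1.57 (95% interval 0.29 to 2.78, adjusted p = 0.17), and it was -0.13 after quantile normalisation. Irf7, the amplifier of type I interferon transcription, and Irf9, the DNA-binding part of the same complex, both stood at 1.10 (adjusted p = 0.348 for Irf7 and 0.347 for Irf9). Irf1, which interferon gamma induces, stood at 1.0 (adjusted p = 0.403).

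In the values as deposited, RNA sensors and RNA-activated enzymes had the highest role median, 1.63 over 8 members. Of these, 5 were higher at an unadjusted p under 0.05, against 6.51% of all genes. This rank depended on the scaling. The role median was 0.49 after median centring and -0.2 after quantile normalisation, where the GTPases stood at 1.38 and 1.37. Ifih1 encodes MDA5, the cytosolic sensor of long double-stranded RNA. Its deviations were 1.66, 2.88, 3.88, 2.72, 0.58 and 1.18 in HF mice, against -0.88, -0.30, -0.40, 0.37, 0.05 and 1.16 in LF mice. HF mouse 5 was below LF mouse 8, and the other HF mice were above all LF mice. At 1.98 (0.60 to 3.31, adjusted p = 0.0873), Ifih1 had the lowest adjusted p of the 42. It passed without HF mouse 5 (2.54, adjusted p = 0.047), the HF mouse with its lowest value. The share of all genes passing under that omission was not counted. Eif2ak2, the kinase PKR that halts translation, stood at 1.62, Oas2 at 1.68 and Oas3 at 1.71, the last 2 being 2'-5' oligoadenylate synthetases that switch on RNase L. These 3 had tiny differences in deposited value, 3.7e-06 for Oas3, against a shift of 3.36e-05 between the array medians of the groups. After median centring they stood at -0.09 for Eif2ak2, -1.11 for Oas2 and -1.90 for Oas3. There Oas3 passed the threshold as lower (adjusted p = 0.00629), as did 87.2% of all genes. Oas2 passed as lower after quantile normalisation (-2.11, adjusted p = 0.0196), as did 17.7% of all genes. The direction of these genes thus depends on the scaling. Oasl2 stood at 1.64 (adjusted p = 0.151), Zbp1, the Z-nucleic acid sensor, at 0.87, Oasl1 at 0.76 and Dhx58, the regulator LGP2, at 0.50. Oasl1 and Dhx58 were below 0 after quantile normalisation, at -0.22 and -0.18.

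The IFIT genes, whose products bind foreign RNA ends and block translation, stood at 1.09 for Ifit1, 1.29 for Ifit2 and 1.19 for Ifit3. Ifit2 deviated by 0.64, 1.32, 3.77, 1.08, 0.18 and 1.37 in HF mice, against -0.80, 0.17, -0.33, 0.01, -0.24 and 1.17 in LF mice. Only HF mice 2, 3 and 8 exceeded LF mouse 8, the highest LF mouse. Its interval was 0.08 to 2.45 (adjusted p = 0.263). In the ISG15 system, Herc6, the mouse ligase that attaches ISG15, stood at 0.93 (-0.21 to 2.03, adjusted p = 0.436) and Usp18, the enzyme that removes ISG15 and dampens the receptor, at 0.85 (adjusted p = 0.484). Herc6 deviated by 0.65, 0.89, 3.54, 1.25, -0.03 and -0.24 in HF mice, against 0.27, -0.45, -0.31, 0.12, -0.20 and 0.55 in LF mice. The HF and LF ranges of this Herc6 probe set overlapped, and the other Herc6 probe sets stood at 1.35, 1.4 and 1.47.

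In the values as deposited, the other antiviral genes formed the weakest group, with a median of 0.71 over 11 members. Of these, 3 were higher at an unadjusted p under 0.05, against 6.51% of all genes. Ifi35, an interferon-induced leucine zipper protein, deviated by 0.46, 1.70, 3.71, 1.58, 0.41 and 1.76 in HF mice, against -0.69, 0.02, -0.34, 0.25, -0.59 and 1.34 in LF mice. Its standardized difference of 1.48 (0.23 to 2.68, adjusted p = 0.194) became -0.29 after quantile normalisation. Samd9l, a restriction factor of poxviruses, stood at 1.32 (-0.38 after quantile normalisation), Xaf1, a pro-apoptotic protein, at 1.14, Trim30a, a TRIM protein that dampens Toll-like receptor signalling, at 1.06 and Rtp4 at 0.99. The classical antiviral effectors were lower in this order, with Ifi27 at 0.71, Mx1 at 0.57, Rsad2 (viperin, which makes a chain-terminating nucleotide) at 0.54, Mx2, like Mx1 a dynamin-like GTPase, at 0.48 and Cmpk2, a mitochondrial nucleotide kinase encoded next to Rsad2, at 0.44. Each of these 5 intervals included 0, and Mx1, Mx2 and Cmpk2 were below 0 under both other scalings.

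Guanylate-binding proteins and immunity-related GTPases, which attack the vacuoles of intracellular pathogens, had a median of 1.38 over 8 members, and Gbp6, Gbp2, Igtp, Gbp3 and Gbp7 had the 5 largest differences in deposited value of the 42 genes. Gbp6 had the largest difference of all 42. Its deposited values were 8.02, 8.11, 8.36, 8.10, 8.02 and 8.04 in HF mice, against 7.90, 7.96, 7.93, 7.96, 7.91 and 8.04 in LF mice. LF mouse 8 overlapped the HF range, and the other LF mice lay below every HF mouse. The difference of means was 0.156 on the deposited log2 scale, and the standardized difference 1.44 (0.20 to 2.63, adjusted p = 0.208). Gbp6 ranked 4 of 18194 genes by SD over the 12 mice, and 20 of the 42 members were among the 1 percent of genes with the highest SD.

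Gbp2 deviated from the LF mean by 0.0354, 0.0144, 0.196, 0.0234, 0.0426 and 0.0299 on the deposited scale in HF mice. In LF mice it deviated by -0.00275, -0.000168, 0.00323, 0.00553, -0.0174 and 0.0116. The groups did not overlap, and HF mouse 3 lay far above the other HF mice, so that the standardized difference was only 1.07 (-0.10 to 2.19, adjusted p = 0.364). Igtp (Irgm3), a regulatory GTPase of the same defence, showed 0.0221, 0.0128, 0.159, 0.0175, 0.0299 and 0.0334 in HF mice, against -0.00673, -0.00751, 0.00107, 0.00141, -0.00758 and 0.0193 in LF mice. LF mouse 8 was above HF mice 2 and 4, and the standardized difference was 1.05 (-0.11 to 2.17, adjusted p = 0.375). Iigp1 (Irga6), an effector GTPase, deviated by 1.38, 1.76, 4.24, 1.69, 1.02 and 1.17 pooled SDs in HF mice, against -0.59, 0.11, -0.07, 0.44, -1.03 and 1.14 in LF mice. Its standardized difference was 1.73 (0.42 to 2.99, adjusted p = 0.13), with HF mouse 5 alone below LF mouse 8. Of the regulatory GTPases, Irgm2 stood at 1.36 (adjusted p = 0.237) and Irgm1 at 0.92 (adjusted p = 0.447). Gbp2, Gbp6 and Gbp7 each had a second probe set, at 1.15, 1.48 and 1.39, and whether a probe set also reads a related GTPase transcript was not tested.

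**Figure D2:**
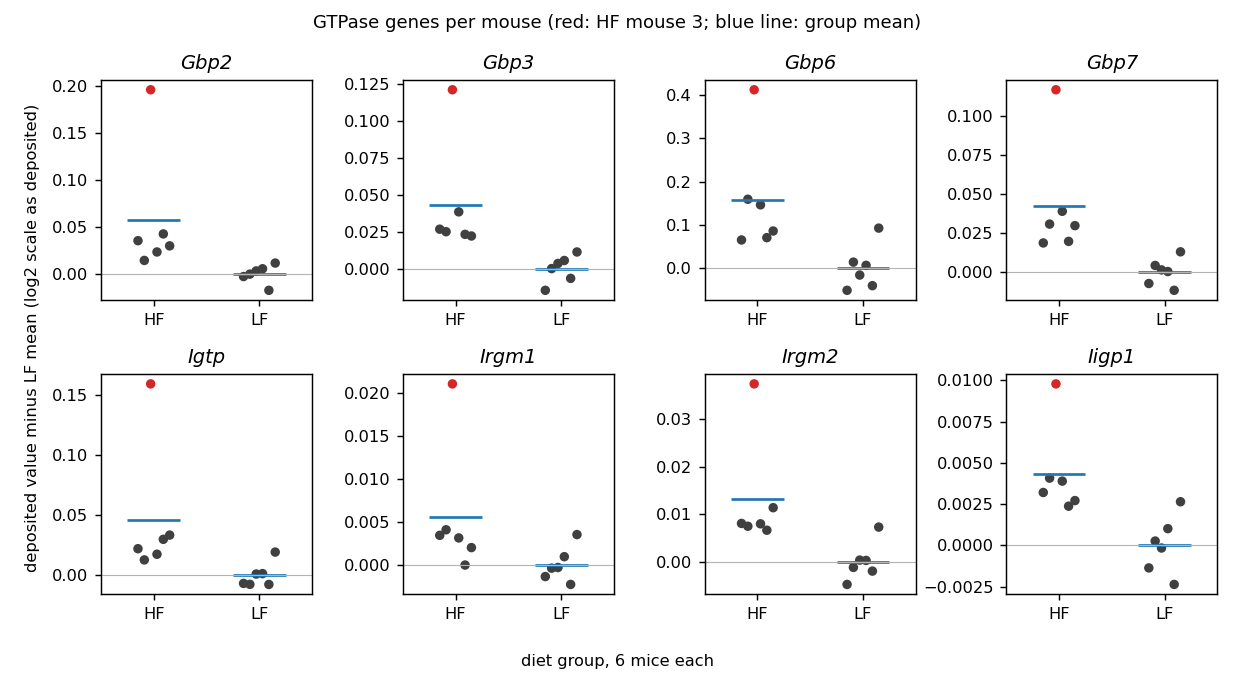
Deposited value minus the LF mean (vertical axis, log2 scale as deposited, a separate range in each panel) for the 8 GTPase genes in 6 HF mice (left) and 6 LF mice (right), with group means as blue lines and HF mouse 3 in red. HF mouse 3 is the highest mouse in every panel, and the other HF mice lie above all LF mice for Gbp2, Gbp3 and Gbp7. The HF mean was above the LF mean for these 8 genes under both other scalings too.

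The PARP genes stood at 0.94 for Parp12, 0.92 for Parp14 (-0.41 after quantile normalisation) and 0.62 for Parp9, which encode ADP-ribosyltransferase family members of the antiviral response. Parp12 deviated by 0.73, 0.97, 3.63, 0.93, 0.01 and -0.17 in HF mice, against -0.50, -0.17, -0.23, 0.32, 0.12 and 0.45 in LF mice, with overlapping ranges (-0.20 to 2.04, adjusted p = 0.433). Antigen processing was represented by Psmb8 at 1.15, Psmb9 at 0.85 and Tap1 at 0.90. Psmb8, an immunoproteasome subunit, deviated by 0.32, 0.64, 3.94, 1.43, 0.30 and 0.84 in HF mice, against 0.04, 0.20, 0.13, -0.32, -0.40 and 0.35 in LF mice. HF mice 1 and 5 lay within the LF range, and the interval was -0.03 to 2.28 (adjusted p = 0.324). Where a gene had several probe sets, they shared their direction for 18 of 19 genes, and 66 of the 69 probe sets were higher in HF.

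A single liver stood out. HF mouse 3 had the highest value of the HF mice for all 42 genes and exceeded the other 11 mice for all 42, whereas over all genes it was the highest HF mouse for 21.1% and above the other 11 for 13.1%. Its median deviation over the 42 genes was 3.61 pooled SDs, against 0.58, 0.96, 1.16, 0.06 and 0.55 in HF mice 1, 2, 4, 5 and 8. The LF mice had medians of -0.42, -0.19, -0.10, 0.11, -0.23 and 0.93. Over all genes, HF mouse 3 had a median deviation of 0.06. Among the LF mice, number 8 was the highest for 38 of 42 members (18.2% of all genes), above HF mice 1, 5 and 8 by its member median. Among the HF mice, number 5 was the lowest for 27 of 42 (17.7% of all genes).

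Leaving out HF mouse 3 made the differences smaller on the deposited scale for 41 of 42 genes, with a median ratio of 0.613, while the pooled SD became smaller too. With 5 HF mice against 6 LF mice, 41 of 42 members remained higher in HF, 0 changed sign, and the median standardized difference was 1.17, against -0.01 over all genes. Gbp3 and Gbp7 then rose past the threshold in HF livers, 2 of 42 members against 0.396% of all genes. The SD of the HF mice fell from 0.0389 to 0.00654 for Gbp3 and from 0.0372 to 0.0085 for Gbp7. Since the mouse left out was the highest for all 42 genes, p-values without it are no independent test. The same holds for the other genes given below without HF mouse 3. For Gbp3 the deviations with all mice had been 0.95, 0.89, 4.29, 1.36, 0.82 and 0.79 in HF mice, against -0.51, 0.01, 0.13, 0.20, -0.23 and 0.40 in LF mice. Its standardized difference was 1.40 (0.17 to 2.58, adjusted p = 0.223) with HF mouse 3 and 3.05 (1.26 to 4.78, adjusted p = 0.034) without it. Gbp7 had deviated by 0.69, 1.14, 4.32, 1.44, 0.73 and 1.10 in HF mice, against -0.27, 0.16, 0.05, 0.01, -0.43 and 0.48 in LF mice. It stood at 1.45 (0.21 to 2.64, adjusted p = 0.205) with HF mouse 3 and at 2.93 (1.18 to 4.61, adjusted p = 0.0381) without it. Both genes were separated from LF in every HF mouse, by a narrow margin in 5 of them and a wide one in mouse 3.

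The GTPases as a group had a median of 2.28 without HF mouse 3, and all 8 were at an unadjusted p under 0.05, against 6.38% of all genes higher and 7.8% lower. Gbp2, Gbp3 and Gbp7 were again the 3 members without overlap, against 1.23% of all genes higher and 1.59% lower. Gbp2 reached 2.58 (adjusted p = 0.0599), Irgm2 2.34 (0.0765), Igtp 2.21 (0.089), Iigp1 2.11 (0.0993) and Gbp6 1.97 (0.119), each short of the threshold. Oasl2 reached 2.25 (adjusted p = 0.0846). The other antiviral genes went the other way, to a median of 0.53, with Bst2 at -1.04 and Cmpk2 at 0.06. The transcription factors had a median of 1.05, the RNA sensors 1.5, the IFIT genes 1.15, the measured ISG15 system genes 0.77, the PARP genes 0.80 and the antigen processing genes 1.09. Whether role groups differ from each other was not tested.

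**Figure D3:**
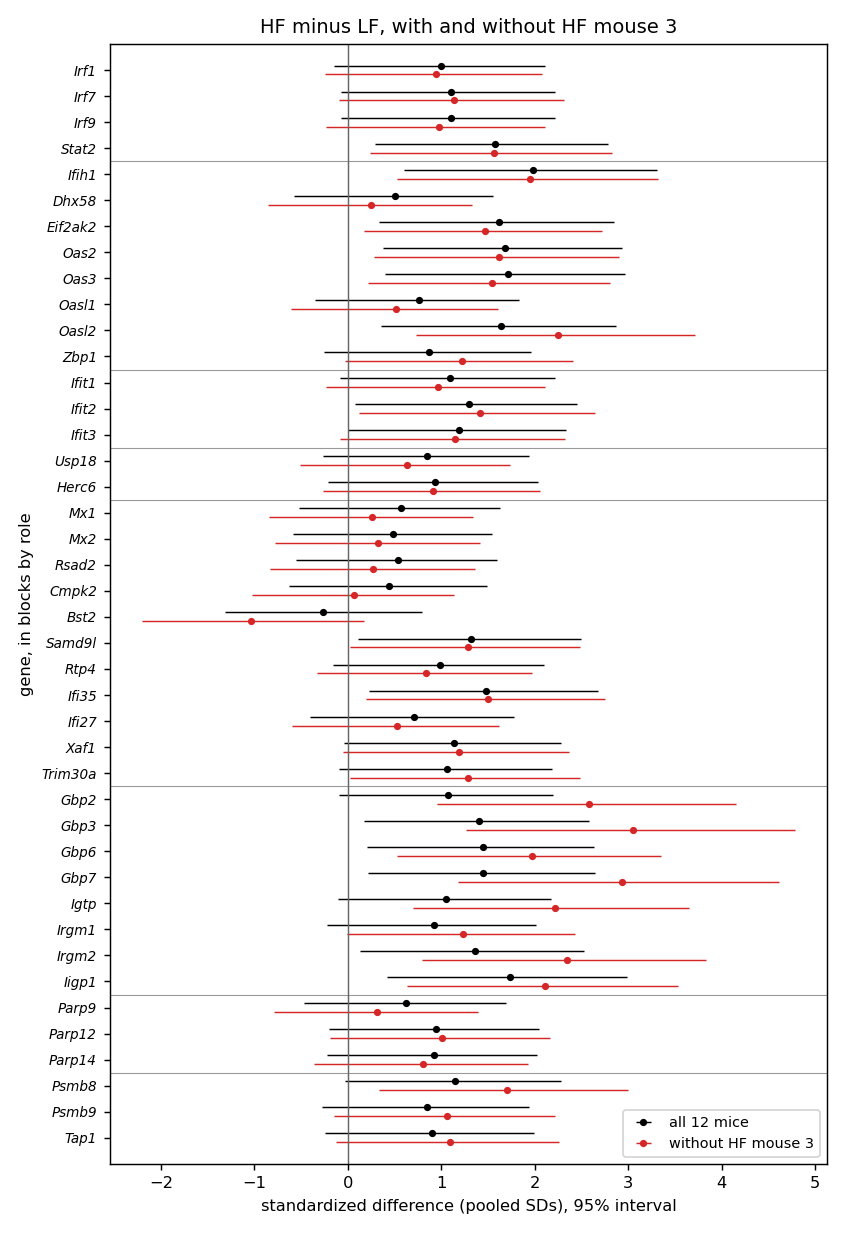
Standardized difference of HF minus LF (horizontal axis, in pooled SDs, with 95% intervals) for the 42 genes in blocks by role, with all 12 mice (black) and without HF mouse 3 (red). Without that mouse the GTPases move to the right, to 3.05 for Gbp3 and 2.93 for Gbp7, while Bst2 moves to -1.04. Positions are from the values as deposited, under which 41 genes lie right of 0, against 35 after median centring and 29 after quantile normalisation.

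HF+P livers had lower mean levels than HF livers for 38 of the 42 genes and higher ones for Dhx58, Oas3, Mx2 and Ifi27. The comparison asks what propagules change in mice on the high-fat diet. The median standardized difference was -0.50, against 0.02 over all genes. None of the 42 passed an adjusted p of 0.05, where 0.0055% of all genes passed upward and 0.0% downward. At an unadjusted p under 0.05 there were 0 members in either direction, against 4.24% of all genes higher and 2.93% lower. No member had groups that did not overlap, against 0.192% of all genes higher and 0.181% lower. After median centring 38 of 42 were lower and after quantile normalisation 35 of 42.

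Oas2 was the furthest apart at -1.11 (-2.24 to 0.06, adjusted p = 0.699), the lowest adjusted p of the 42. Its deviations from the HF mean were -2.07, -0.38, -0.98, -2.13, -1.29 and -0.39 in HF+P mice, against -0.14, -0.72, 2.37, -0.68, -0.33 and -0.50 in HF mice. The ranges overlapped, and without HF mouse 3 the value was -1.11 (-2.28 to 0.11, adjusted p = 0.822). The difference of deposited means was -4.51e-06.

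Among the GTPases, 8 of 8 had lower means in HF+P, with a median of -0.67. Gbp6 deviated by -0.116, -0.0904, 0.0196, -0.058, -0.0482 and -0.0562 on the deposited scale in HF+P mice, against -0.0649, 0.00174, 0.181, -0.0074, -0.0607 and -0.0494 in HF mice. Its standardized difference was -0.73 (-1.81 to 0.37, adjusted p = 0.785). Apart from HF mouse 3, the HF and HF+P values of Gbp6 covered much the same range. Gbp2 showed -0.0513, -0.0417, -0.00337, -0.00557, -0.0138 and -0.0259 in HF+P mice, against -0.0176, -0.0347, 0.114, -0.0274, -0.0116 and -0.0223 in HF mice (-0.52, -1.57 to 0.56, adjusted p = 0.853). Igtp showed -0.0392, -0.0547, -0.00025, -0.0195, -0.029 and -0.0167 in HF+P mice, against -0.023, -0.032, 0.109, -0.0272, -0.0153 and -0.0118 in HF mice (-0.61, -1.67 to 0.49, adjusted p = 0.826). For these genes HF mouse 3 was the highest of the 12 mice, with a wide gap to the next. Iigp1 deviated by -1.56, -1.27, 0.35, -0.71, -0.71 and -1.42 pooled SDs in HF+P mice, against -0.52, -0.12, 2.43, -0.18, -0.87 and -0.74 in HF mice (-0.82, -1.90 to 0.30, adjusted p = 0.767). Gbp3 stood at -0.62, Gbp7 at -0.71, Irgm2 at -0.73 and Irgm1 at -0.46.

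The remaining role groups had medians between -0.29 and -0.71. Psmb9 led the antigen processing genes, whose median was -0.71, with -1.03, -1.62, -0.35, -0.84, -0.56 and -0.50 in HF+P mice, against -0.86, -0.40, 2.68, -0.11, -0.61 and -0.70 in HF mice (-0.75, -1.83 to 0.36, adjusted p = 0.775). Irf7 deviated by -1.27, -0.71, 0.29, -0.81, -1.03 and -0.42 in HF+P mice, against -0.78, -0.50, 2.38, 0.63, -1.10 and -0.64 in HF mice (-0.61, -1.67 to 0.48, adjusted p = 0.826). Its ranges overlapped, as did those of every other member. Samd9l deviated by -1.12, -1.88, 0.16, -0.39, -0.62 and -0.54 in HF+P mice, against -1.17, 0.50, 2.03, 0.44, -1.02 and -0.77 in HF mice (-0.68, -1.74 to 0.42, adjusted p = 0.809). Ifit2 deviated by -1.61, -0.74, 0.21, -0.43, -0.30 and -0.64 in HF+P mice, against -0.76, -0.07, 2.43, -0.42, -1.23 and 0.03 in HF mice (-0.54, -1.60 to 0.54, adjusted p = 0.846). HF+P mouse 3 was the highest HF+P mouse for Ifit2, as it was for 29 of 42 members (17.6% of all genes). Herc6 deviated by -0.76, -0.66, 0.23, -0.45, -0.55 and -0.64 in HF+P mice, against -0.52, -0.24, 2.58, 0.28, -0.85 and -1.24 in HF mice (-0.44, -1.49 to 0.64, adjusted p = 0.878). Parp12 deviated by -0.79, -0.97, 0.11, -0.23, 0.00 and -0.69 in HF+P mice, against -0.29, -0.05, 2.57, -0.08, -1.0 and -1.14 in HF mice (-0.40, -1.45 to 0.67, adjusted p = 0.897). Both Herc6 and Parp12 had the opposite sign without HF mouse 3, at 0.09 and 0.16. With all mice, the other Herc6 probe sets stood further from 0 than the one used, at -0.97, -0.65 and -0.83.

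**Figure D4:**
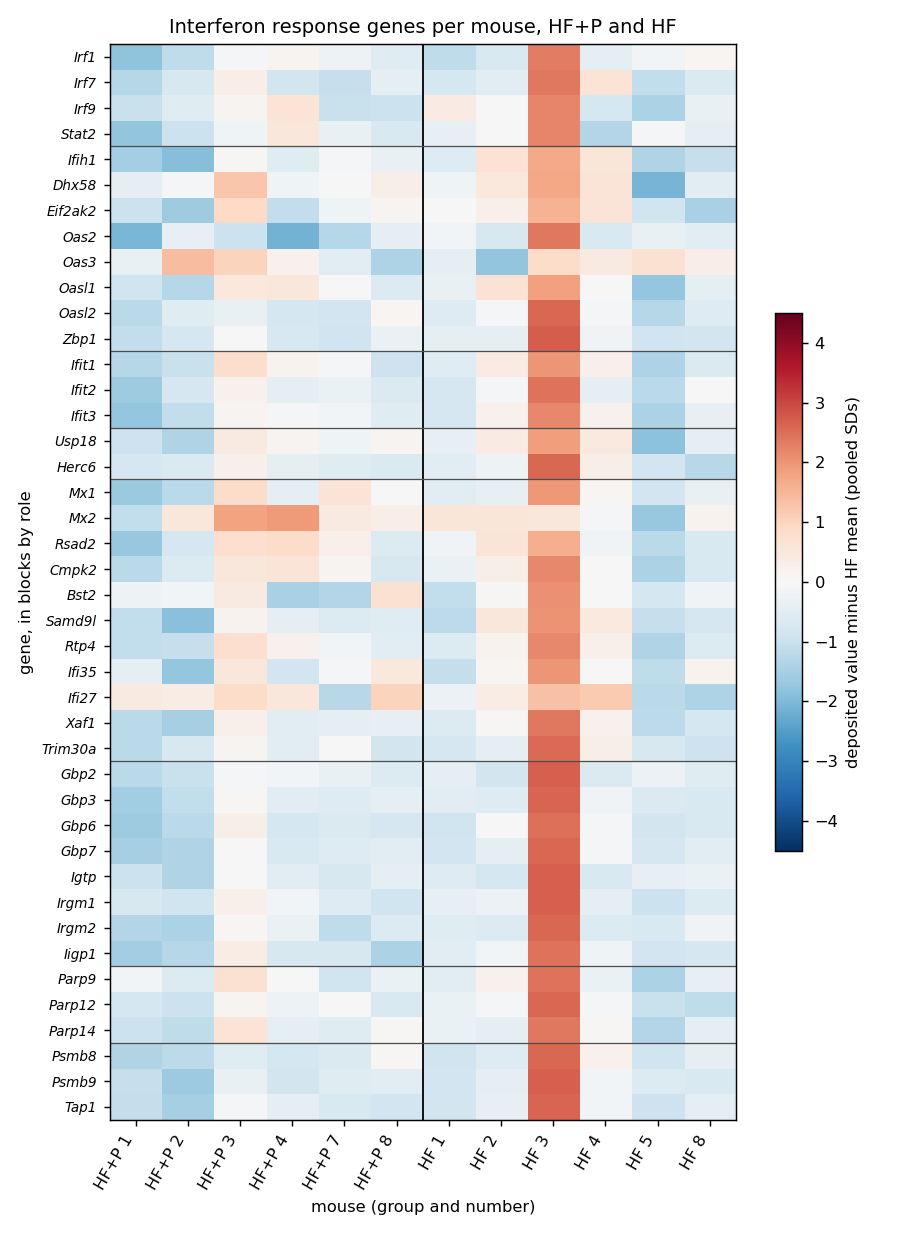
Deviation of each mouse (columns, 6 HF+P mice left of the line and 6 HF mice right of it) from the HF mean, in pooled SDs (colour), for the 42 interferon response genes (rows, in blocks by role). The column of HF mouse 3 is the only one above the HF mean for all 42 genes, and HF+P mouse 1 is below it for all but 1. Colours are from the values as deposited; no gene turns its direction after median centring and 7 do after quantile normalisation.

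The lower means in HF+P rested on HF mouse 3 to a large degree. In the re-analysed values this mouse was the highest HF mouse for 41 of 42 members (21.3% of all genes) and above the other 11 for 40 (13.3% of all genes), with a median deviation of 2.37. The medians of HF mice 1, 2, 4, 5 and 8 were -0.52, -0.06, -0.04, -0.99 and -0.52, and those of the HF+P mice were -1.16, -1.02, 0.22, -0.39, -0.52 and -0.50. Without HF mouse 3, 24 of 42 members were lower and 18 higher, 14 having changed sign, and the median standardized difference was -0.10, against 0.03 over all genes. Differences of deposited means shrank to a median ratio of 0.202. The GTPases kept lower means for 7 of 8 members (median -0.40) and the antigen processing genes for 3 of 3 (median -0.50), with 0 members past the threshold. At an unadjusted p under 0.05 there were 0 members, against 3.58% of all genes higher and 2.64% lower, and 0 without overlap, against 0.308% higher and 0.247% lower. The same 6 HF arrays gave the same order of mice in both processings for 31 of 42 members.

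Of the 9 interferon genes measured, 8 lay below the median level of named probe sets. In HF against LF 4 of 9 were higher, with a median of -0.14, and 0 passed the threshold. Ifna2, the only one above the median level of named probe sets, had the largest difference (1.41, 0.17 to 2.59, adjusted p = 0.248). Ifnab stood at 0.87 (adjusted p = 0.481) with a deviation of 3.02 in HF mouse 3. Ifng, the gene of interferon gamma, had the lowest level of the list. It stood at 0.85 (adjusted p = 0.485) with a deviation of 2.94 in HF mouse 3. Over the 9 genes, however, the median deviation of HF mouse 3 was 0.10, against -0.45 to 0.28 in the other HF mice. Ifnb1 stood at -0.14 (adjusted p = 0.938), and 5 of the 9 were lower in HF. Receptors, kinases and STATs (9 of 14 higher, median 0.26) and negative regulators (10 of 14 higher, median 0.29) had 0 members past the threshold. Among nucleic acid sensors and adaptors, 10 of 16 were higher (median 0.33) and 1 fell, Traf6, a ubiquitin ligase of Toll-like receptor signalling (-2.76, adjusted p = 0.0312), which stood at -2.58 without HF mouse 3 (adjusted p = 0.0609). Without HF mouse 3 the medians were 0.10 for receptors, kinases and STATs, 0.19 for negative regulators and 0.09 for sensors and adaptors. The medians of the 4 lists, over all 12 mice, were all below 0 under both other scalings, as was that of all genes (-2.0 after median centring and -0.76 after quantile normalisation).

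Other interferon-induced genes resembled the members in direction, with 37 of 39 higher in HF (median 1.02), 0 rising and 1 falling past the threshold. That gene was Ifitm2, a membrane protein that restricts viral entry, at -3.52 (-5.33 to -1.65, adjusted p = 0.00917), and at -3.58 without HF mouse 3 (adjusted p = 0.0179). Its deviations were -5.19, -4.26, -3.01, -4.14, -2.59 and -3.66 in HF mice, against 1.64, -0.52, 0.17, -1.60, -0.02 and 0.31 in LF mice, with no overlap. It passed after median centring (adjusted p = 0.00264), where 87.2% of all genes passed downward, and did not after quantile normalisation (adjusted p = 1.0). Its neighbours in function Ifitm1 and Ifitm3 stood at 0.97 and 1.21. Cxcl9, a chemokine induced by interferon gamma that attracts T cells, stood at 1.25 (adjusted p = 0.282) and rose without HF mouse 3 (3.07, adjusted p = 0.034), when Cxcl10 stood at 2.17 (adjusted p = 0.0924). In the further list of antigen processing and MHC class I, 13 of 13 were higher (median 0.91). B2m, the light chain of MHC class I, stood at 2.01 (0.62 to 3.34, adjusted p = 0.0839) and rose without HF mouse 3 (3.63, adjusted p = 0.0186). The direction of B2m depended on the scaling. It stood at -1.52 after median centring of all 12 arrays (adjusted p = 0.0182), where 87.2% of all genes passed downward. After quantile normalisation it stood at 0.53 (adjusted p = 1.0). After median centring 25 of the 39 and 8 of the 13 were higher, and after quantile normalisation 20 and 6. In HF+P against HF, 34 of the 39 (median -0.53) and 12 of the 13 (median -0.46) were lower, and 0 passed. Without HF mouse 3 the lower genes were 28 of the 39 (median -0.18) and 9 of the 13 (median -0.19).

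The median deviations of the macrophage and lymphocyte markers were also highest in HF mouse 3, and that of the neutrophil markers was not. Single markers of both lists, such as Marco and Prf1, were highest in another mouse. Of 18 Kupffer cell and macrophage markers, 15 were higher in HF than in LF (median 0.66, 0 past the threshold), and of 18 lymphocyte and NK cell markers 18 were higher (median 0.72, 0 past the threshold). The summed level of the macrophage markers was 10827 to 10858 in HF mice and 10823 to 10851 in LF mice, and that of the lymphocyte markers was 2246.5 to 2246.8 in HF mice and 2246.5, after rounding, in every LF mouse. Of the lymphocyte markers, 14 of 18 lay below the median level of named probe sets, against 1 of 18 macrophage markers, and none was at 0 on this scale. HF mouse 3 had a median marker deviation of 2.74 for macrophages and 2.42 for lymphocytes, against -0.22 to 0.92 and -0.30 to 0.68 in the other HF mice. LF mouse 3 reached 1.5 for the macrophage markers while its member median was -0.10, and LF mouse 8, the highest LF mouse for the interferon response genes, was at 0.04 for macrophages. Without HF mouse 3 the macrophage median was 0.39 and the lymphocyte median 0.51. The macrophage markers were higher for 15 of 18 after median centring and 13 of 18 after quantile normalisation, and the lymphocyte markers for only 4 and 2 of 18, so the direction of the lymphocyte list depends on the scaling.

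Hepatocyte markers ran the other way in HF mouse 3, at -1.09, against -0.80 to 0.22 in the other HF mice. Their median over the groups was -0.53 with 0 of 11 past the threshold. The median was -2.06 after median centring and -0.53 after quantile normalisation, against -2.0 and -0.76 over all genes. Its sign under those scalings is thus that of all genes. Endothelial markers stood at -0.53 with 1 of 11 past it, Tek, the angiopoietin receptor (-2.53, adjusted p = 0.0402), which no longer passed without HF mouse 3 (-2.33, adjusted p = 0.0779). Plasmacytoid dendritic cell markers stood at 0.17 over 7 genes, neutrophil markers at 0.33 over 9, with their highest median deviation in HF mouse 5 (1.78, against 1.46 in HF mouse 3), and markers of other tissues at -0.01 over 10. Without HF mouse 3 the plasmacytoid dendritic cell median was 0.09 and that of other tissues was -0.29. In HF+P against HF, 17 of 18 macrophage markers (median -0.67) and 14 of 18 lymphocyte markers (median -0.31) were lower, 0 of them past the threshold, and both medians stayed below 0 under the other scalings. Without HF mouse 3, 15 of 18 macrophage markers (median -0.41) and 11 of 18 lymphocyte markers (median -0.09) were lower. The summed macrophage level was 10596 to 10612 in HF+P mice and 10601 to 10627 in HF mice, and HF mouse 3 was at 2.07. The part of immune cell number in the values of the interferon response genes was not tested.

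**Figure D5:**
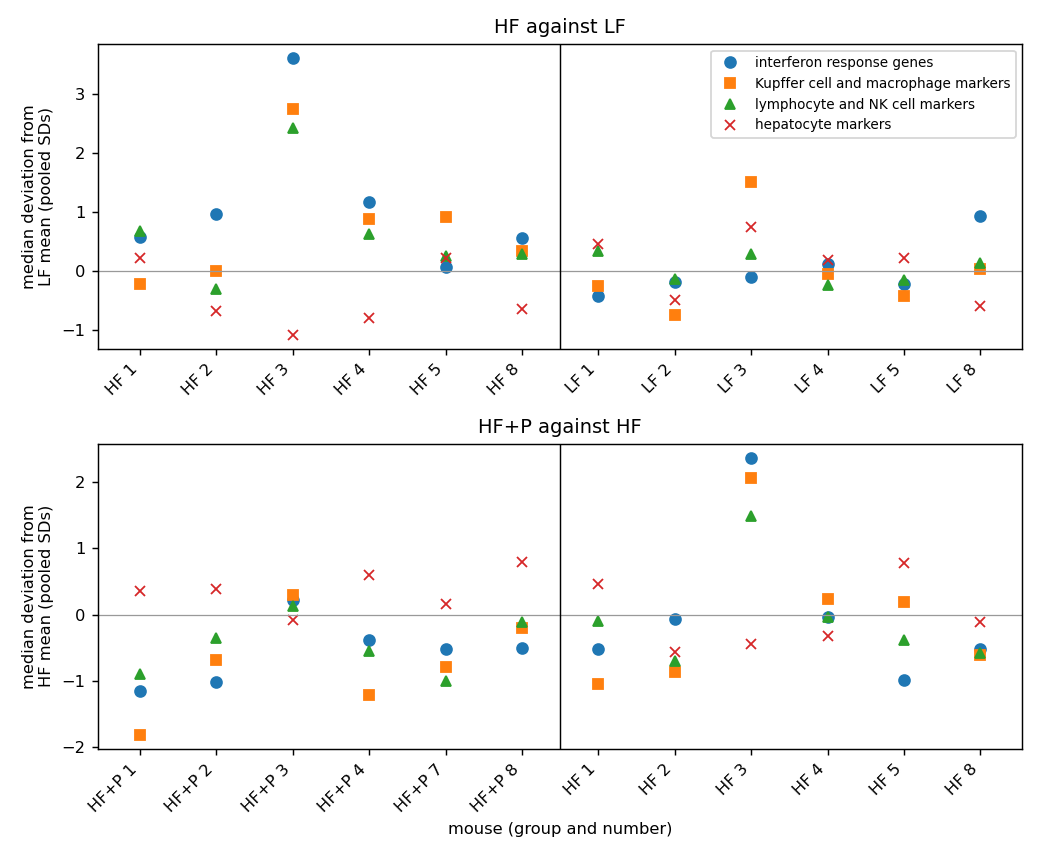
Median deviation per mouse (vertical axis, pooled SDs) of the 42 interferon response genes and of the macrophage, lymphocyte and hepatocyte marker lists, for HF and LF mice (top, deviation from the LF mean) and HF+P and HF mice (bottom, deviation from the HF mean). In HF mouse 3 the interferon response genes stand at 3.61 in the top panel with macrophage markers at 2.74, lymphocyte markers at 2.42 and hepatocyte markers at -1.09, and in LF mouse 3 macrophage markers stand at 1.5 with the interferon response genes at -0.10.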

How the data were processed

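Liver RNA was isolated with Trizol, labelled with the GeneChip 3' IVT Express kit and hybridised, per the labels' protocols. R 2.7.2 is named per the submitters' processing notes. How probe sets were summarised and normalised, and the log base, is not given in the sources used here. Values as deposited by the authors lie between 5.36 and 15.0 and were handled as log2 values for that range. Precision is limited by the 6 arrays in each group. The labels name separate mice, and p-values measure the spread between them in the deposited values. That spread is very small for most probe sets, and how the processing shaped it is not known.

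Of 45101 probe sets, 34958 list a single gene symbol, 932 several, and 9211 are not in the annotation used. Of the named ones, 34754 matched RefSeq (GRCm38.p6), which changed 0 symbols. A gene was represented by its probe set with the highest mean over the 24 columns. Each comparison was fitted with limma 3.58.1 (R 4.3.3, lmFit and eBayes, two-sided, no covariate) on 18194 genes, with Benjamini-Hochberg adjustment and a threshold of 0.05, and the procedure was tested on simulated data. The prior degrees of freedom were 0.654 and 0.696, so genes borrowed little spread from each other. Intervals come from the noncentral t distribution. Summed marker levels add 2 to the power of the values.

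Mouse numbers were checked as pairs: same-numbered deviations correlated between -0.14 and 0.13 in HF and LF (6 pairs) and between 0.05 and 0.20 in HF+P and HF (5 pairs), so they were not treated as paired. Per-mouse values are given for the member of each role group with the largest absolute standardized difference, the 3 members with the largest difference of deposited values, and members past the threshold in a comparison or without HF mouse 3. Of other genes, those past the threshold or among the largest standardized differences of a list were named. Ifng, Ifnb1, Ifitm1, Ifitm3, Cxcl10, Marco and Prf1 were chosen after their values were seen. The members and lists were chosen with earlier results of these data known. Alternatives were other scalings, filters, gene representations, variance models, a block for the mouse number, and the omission of each mouse in turn.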

Additional observations from a re-analysis of the deposited data

Results flagged for a closer look

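HF mouse 3 lay apart from the other HF mice in named members, by a gap to the nearest mouse that made up more of the range of the 6 HF mice than Dixon's 95% critical value for 6 samples. In the values processed with LF this share was 0.668 for Ifit2, 0.845 for Gbp2, 0.729 for Gbp6, 0.859 for Igtp, 0.77 for Iigp1, 0.701 for Parp12 and 0.688 for Psmb8. In the values processed with HF+P it was 0.814 for Oas2, 0.656 for Ifit2, 0.845 for Gbp2, 0.729 for Gbp6, 0.857 for Igtp, 0.774 for Iigp1, 0.707 for Parp12 and 0.788 for Psmb9. Both processings use the same arrays and are no independent evidence. Over all 42 members, HF mouse 3 lay apart in this way for 21 among the values made with LF and for 22 among those made with HF+P. The share of all genes for which it lay apart was not counted. It was the highest HF mouse for 21.1% of all genes in the values made with LF and 21.3% in those made with HF+P.

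LF mouse 8 lay apart as the highest LF mouse for Igtp, with a share of 0.666, and for 6 of the 42 members in all. HF+P mouse 3 lay apart as the highest HF+P mouse for Herc6, with a share of 0.683. By the critical value chance flags about 1 in 20 groups, which is not a share counted over all genes here. Genes of one mouse share its RNA, so the flags of different genes are not separate observations. The causes were not tested.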

How the results depend on the processing

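The count of members past the threshold in HF against LF was 0 as reported, when 0.682% of all genes passed upward and 1.14% downward. It was 2 without HF mouse 3 (Gbp3 and Gbp7), when 0.396% passed upward and 0.583% downward. It was 14 after median centring (13 higher, 1 lower), when 1.27% of all genes passed upward and 87.2% downward, which loosens the adjusted threshold. After quantile normalisation it was 1 (Oas2, lower), when 0.72% passed upward and 17.7% downward. It was 1 without HF mouse 5 (Ifih1) and ranged from 0 to 2 over the mice left out. At an adjusted p under 0.10 it was 1 (Ifih1). For mice other than HF mouse 3 and for the looser threshold, the share of all genes was not counted. Those counts therefore have no background. The median difference ranged from 0.95 to 1.32 when mice were left out, and in HF+P against HF from -0.65 to -0.10, with 0 members past the threshold under any alternative run. After quantile normalisation Stat2 stood at -0.13 and Ifi35 at -0.29 in HF against LF, and Herc6 at 0.04 in HF+P against HF, where leaving out mice gave -0.69 to 0.09 for Herc6 and -0.62 to 0.16 for Parp12, both highest and above 0 without HF mouse 3. The cause was not tested. With the mouse number as a replicate block, 0 members passed in either comparison, and the medians were 1.0 and -0.82. Over the named genes and the settings tried, 426 other values kept their direction and side of the threshold, 7 passed it and 5 turned. Of 18194 genes, 332 passed in HF against LF as reported, 178 without HF mouse 3, 261 with the block, 3345 after quantile normalisation and 16089 after median centring. Centring subtracts a shift of 3.36e-05 between array medians, above the differences of 6 members.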
